A study of Mus musculus with 22 samples.

Results

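Steroid-metabolising dehydrogenases and reductases were followed in mouse liver of both sexes, with an intact pituitary, after its removal, and after removal plus growth hormone (GH). The set held 10 genes of 33767 gene names on the array. Its members were the 3 genes Hsd3b5, Hsd3b2 and Hsd3b3, the 3 genes Hsd17b2, Hsd17b6 and Hsd17b13, and Hsd11b1, Srd5a1, Akr1d1 and Akr1c6. They were chosen by name with earlier results of these data known, so member counts set beside all genes are a description only. Each probe was matched to its gene by accession or gene name in all 22 arrays. All 10 were among the 26192 genes that passed the filter on dim probes. Hsd3b2 had 3 probes and each other member had 1.

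The mice were of the ICR strain and 8 weeks old. Sham-operated males and females (called untreated in the labels) had sham surgery and vehicle. Hypophysectomised (Hypox) mice of both sexes had lost the pituitary at adulthood. The other 3 groups of each sex were Hypox mice given GH: 1 injection with death 30 min or 90 min later, or 2 injections 4 h apart with death 30 min after the last. Hypox mice therefore lacked every pituitary hormone, not GH alone, and the treated groups were given back GH only. The dose of GH was not given in the sources used here. RNA was pooled from 2 to 5 mice, and 2 pools were set against each other on each 2-colour array, with each of 11 comparisons on 2 arrays of opposite dye.

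These enzymes set how much active steroid a liver cell sees and how steroids leave the body. Hydroxysteroid dehydrogenases exchange a hydroxyl for a keto group at a fixed carbon of the ring system, which turns hormones on or off, while steroid reductases remove a double bond of the ring or reduce a keto group. In rodents several of them are made at different levels in male and female liver, and the pattern of GH release, pulsed in males and more continuous in females, is a known regulator of such genes.

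The Hsd3b genes act on the hydroxyl or keto group at carbon 3, and Hsd3b5, Hsd3b2 and Hsd3b3 follow each other on chromosome 3 in the RefSeq table, with the pseudogenes Gm12399 and Gm12400 between Hsd3b5 and Hsd3b2. Their promoter windows are shown because these 3 neighbours gave 3 different patterns below. Each window runs from 250 bases before to 50 bases after the start of the gene on the minus strand, from RefSeq (build GRCm38.p6), and capitals mark runs of at least 15 bases that 2 of the 3 windows share. For Hsd3b3 the first of its near-identical windows in that table is printed.
Hsd3b5, chr3:98645485-98645784: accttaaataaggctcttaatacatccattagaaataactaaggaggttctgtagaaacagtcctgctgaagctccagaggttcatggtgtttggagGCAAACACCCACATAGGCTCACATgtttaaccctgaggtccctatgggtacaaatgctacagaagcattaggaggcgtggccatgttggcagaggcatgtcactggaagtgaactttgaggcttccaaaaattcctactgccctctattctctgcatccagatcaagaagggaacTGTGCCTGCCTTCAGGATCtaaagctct
Hsd3b2, chr3:98724494-98724793: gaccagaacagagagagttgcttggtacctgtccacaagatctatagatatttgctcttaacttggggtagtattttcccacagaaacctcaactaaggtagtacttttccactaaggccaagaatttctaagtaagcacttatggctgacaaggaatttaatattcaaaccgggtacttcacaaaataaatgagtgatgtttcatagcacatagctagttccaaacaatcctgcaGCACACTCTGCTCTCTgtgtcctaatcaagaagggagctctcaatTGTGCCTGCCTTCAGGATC
Hsd3b3, chr3:98763079-98763378: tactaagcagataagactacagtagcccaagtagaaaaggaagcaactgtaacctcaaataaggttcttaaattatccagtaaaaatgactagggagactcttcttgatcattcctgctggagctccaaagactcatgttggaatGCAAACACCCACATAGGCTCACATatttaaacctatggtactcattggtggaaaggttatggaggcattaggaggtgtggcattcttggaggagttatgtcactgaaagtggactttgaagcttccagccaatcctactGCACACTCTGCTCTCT

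Hsd3b5 and Hsd3b3 shared a run of 24 bases, Hsd3b5 and Hsd3b2 a run of 19 bases at the start of the transcript, and Hsd3b2 and Hsd3b3 a run of 16 bases. The 24-base run was found in 3 of the 32851 windows of the table, all of them of Hsd3b5 or Hsd3b3. The STAT5 motif TTCNNNGAA, which reads the same on both strands, was in 8.3% of all windows and in 0 of the 11 windows of the 9 members that the table held.

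Every ratio below is log2 of the first named group over the second, after background correction and normalization within each array, and is given as the mean of 2 arrays ± SE. The SE comes from a limma fit of all 22 arrays, so a gene has 1 SE throughout, which does not describe how far its own 2 arrays lay apart. Calls needed a Benjamini-Hochberg adjusted p under 0.05 and the same sign on the 2 arrays. Nothing in the labels says that the 2 arrays of a comparison hold separate mice, so p-values measure the spread between these arrays. In whole liver, fewer cells of a type and less RNA per cell cannot be told apart. A spot counts as well above background by the scanner software's own flag, and 57.1% to 77.7% of the spots of a channel passed it. The 57.1% came from the Hypox (red) channel of array 2 of Hypox over sham females, while all other channels passed at 69.3% or more. That array also had the most outlier spots (159) and read Xist at -1.92 although both of its pools were female, so female Hypox results are also given without it. All members but Srd5a1 were well above background in 44 of 44 channels, and so were the 5 hepatocyte markers that could be named. The sex chromosome genes Xist, Eif2s3y, Ddx3y, Kdm5d and Uty followed the labelled sexes on 6 of 6 arrays that set males against females. As a check of the injections, Socs2, a feedback inhibitor of GH signalling, rose by 2.22 in males and 2.97 in females at 30 min.

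**Figure D1:**
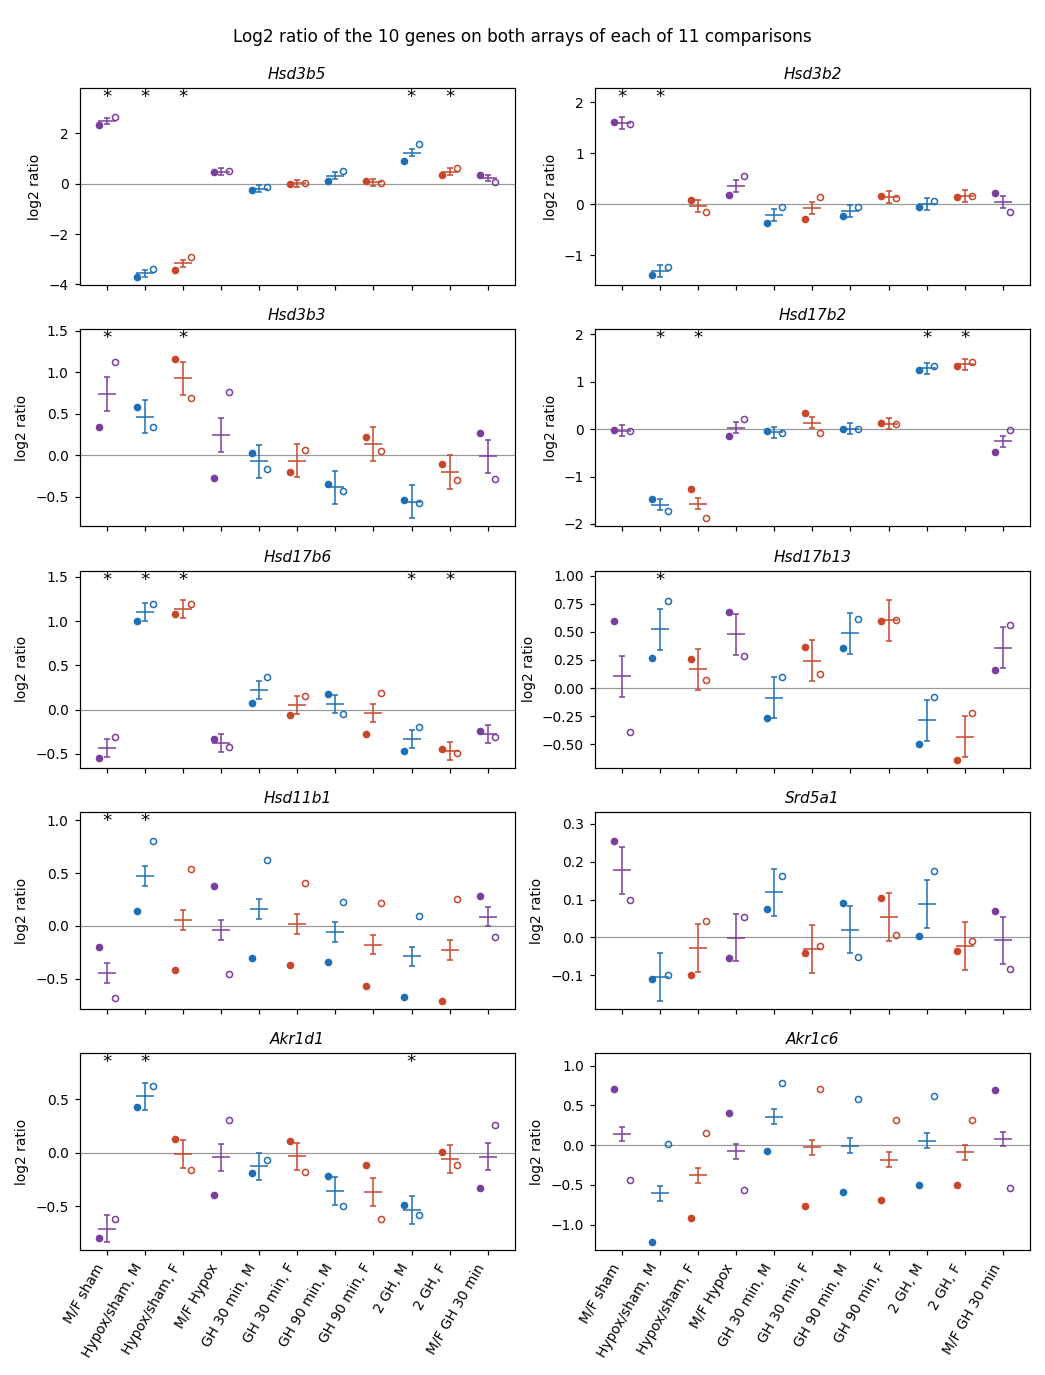
Log2 ratios of the 10 genes in the 11 comparisons, 1 panel per gene, with the comparison on the x axis and the log2 ratio of the first over the second named group on the y axis. Filled points are array 1 and open points array 2, bars are the mean ± SE of the limma fit, asterisks mark called ratios, and colours mark comparisons between sexes (purple), in males (blue) and in females (red). Hsd3b5 spans from -3.55 to 2.49, and the 2 arrays of Akr1c6 lie apart in most comparisons.

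Sham males were compared with sham females to give the sex difference in livers with an intact pituitary. All 3 Hsd3b genes were higher in males, and Akr1d1, Hsd11b1 and Hsd17b6 were higher in females, so 6 of 10 members were called against 8.77% of all genes tested (3 higher in males against 5.03%, and 3 lower against 3.74%). The median of the members was 0.12, beside -0.01 for all genes.

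Hsd3b5, a liver form that reduces keto steroids, read 2.33 and 2.64 on its 2 arrays, a mean of 2.49 ± 0.13 or 5.60-fold (adjusted p = 8.4e-08). Hsd3b2 read 1.62 and 1.56, a mean of 1.59 ± 0.12 or 3.01-fold (adjusted p = 1.6e-06). Its other 2 probes gave 1.37 and 1.15. Hsd3b3, which like Hsd3b2 belongs to the forms that oxidise and isomerise steroids, read 0.34 and 1.13, a mean of 0.74 ± 0.20 (adjusted p = 0.038). Its 2 arrays lay far apart, and with array 1 or array 2 left out the call was lost (1.05 and 0.43).

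On the female side stood Akr1d1, the reductase that saturates the first ring of steroid hormones and of bile acid precursors, at -0.80 and -0.62 (mean -0.71 ± 0.13, adjusted p = 0.0036). Hsd11b1, which regenerates active corticosterone in the liver, read -0.20 and -0.69 (mean -0.44 ± 0.09, adjusted p = 0.0089). Hsd17b6, which oxidises androstanediol and related steroids, read -0.55 and -0.31 (mean -0.43 ± 0.10, adjusted p = 0.019). All 6 arrays of these 3 genes lay below 0, yet with array 1 left out all 3 lost the call (-0.75, -0.30 and -0.24), and with array 2 left out Akr1d1 lost it (-0.67). Hsd17b2, which inactivates estradiol and testosterone, read -0.02 and -0.04 (mean -0.03 ± 0.12). Hsd17b13, a lipid droplet protein, and Akr1c6, which reduces androstenedione to testosterone, had 1 array on each side of 0.

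Hypox mice were compared with sham mice of the same sex to give the effect of losing the pituitary. In males Hsd3b5, Hsd17b2 and Hsd3b2 fell and Hsd17b6, Akr1d1, Hsd17b13 and Hsd11b1 rose, 7 of 10 members against 37.4% of all genes (4 higher against 18.8%, and 3 lower against 18.6%). In females Hsd3b5 and Hsd17b2 fell and Hsd17b6 and Hsd3b3 rose, 4 of 10 against 31.1% of all genes (2 higher against 14.6%, and 2 lower against 16.5%). The median of the members was 0.18 in males and -0.02 in females, beside 0.01 and 0.00 for all genes.

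The largest fall among the members was that of Hsd3b5. Its arrays read -3.70 and -3.40 in males (mean -3.55 ± 0.13, adjusted p = 1.7e-09). In females they read -3.41 and -2.90 (mean -3.16 ± 0.13, adjusted p = 1.6e-08). Hsd3b5 thus fell on all 4 arrays, although sham females had started 5.60-fold below sham males.

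Hsd17b2 fell alike in males and females. It read -1.46 and -1.73 in males (mean -1.59 ± 0.12, adjusted p = 5.8e-07) and -1.27 and -1.88 in females (mean -1.58 ± 0.12, adjusted p = 1.5e-06). The male minus female difference of this effect was -0.02 ± 0.16, with a 95% interval of -0.38 to 0.34. Hsd17b6 moved the other way in both sexes. Its arrays read 1.01 and 1.20 in males (mean 1.10 ± 0.10, adjusted p = 4.6e-06) and 1.08 and 1.19 in females (mean 1.14 ± 0.10, adjusted p = 7.7e-06), and the difference between sexes was -0.04, with an interval of -0.35 to 0.28. These 2 members of the Hsd17b family therefore moved in opposite directions on every one of the 4 arrays.

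Hsd3b2 and Hsd3b3 differed from their neighbour. Hsd3b2 read -1.39 and -1.22 in males (mean -1.31 ± 0.12, adjusted p = 3.1e-06) and 0.08 and -0.14 in females (mean -0.03 ± 0.12, adjusted p = 0.885). Hsd3b3 rose in females, with 1.17 and 0.69 (mean 0.93 ± 0.20, adjusted p = 0.0038), and read 0.58 and 0.35 in males (mean 0.47 ± 0.20, adjusted p = 0.089). The call of Hsd3b3 in females was lost without array 1 (0.79). With array 2, the array that stood apart, left out, all 4 female calls held, at -3.33 for Hsd3b5, -1.34 for Hsd17b2, 1.14 for Hsd17b6 and 1.07 for Hsd3b3.

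Smaller changes passed the test in males. Akr1d1 read 0.43 and 0.62 (mean 0.53 ± 0.13, adjusted p = 0.0063), Hsd11b1 0.14 and 0.80 (mean 0.47 ± 0.09, adjusted p = 0.0015) and Hsd17b13 0.27 and 0.78 (mean 0.52 ± 0.18, adjusted p = 0.0395). All 6 arrays lay above 0. Hsd11b1 and Hsd17b13 lost the call without array 1 (0.43 and 0.68), and Akr1d1 and Hsd17b13 lost it without array 2 (0.28 and 0.37). In females the means were -0.01 for Akr1d1, 0.06 for Hsd11b1 and 0.17 for Hsd17b13, and none was called.

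The difference between the sexes in the Hypox effect was tested in the same fit, where 6.74% of all genes passed. Of the members only Hsd3b2 did, at -1.28 ± 0.16 (adjusted p = 5.5e-04). Its other 2 probes gave -1.19 ± 0.27 and -0.92 ± 0.19, with adjusted p of 0.020 and 0.013. Without female array 2 the difference for Hsd3b2 was -1.45 and still called, and with arrays centred on the median in place of loess it was -1.14 and not called. Hsd11b1 (0.41 ± 0.13, adjusted p = 0.085) and Akr1d1 (0.54 ± 0.18, adjusted p = 0.103) did not pass, so a rise in males alone was not shown for them. Hsd3b5 gave -0.40 ± 0.19 (adjusted p = 0.241).

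Males and females were also set against each other after Hypox. By limma none of the 10 members was called there, against 1.63% of all genes, and 4 had an unadjusted p under 0.05. Those were Hsd3b5 with 0.47 and 0.49 (mean 0.48 ± 0.13, adjusted p = 0.086), Hsd3b2 with 0.17 and 0.55 (mean 0.36 ± 0.12), Hsd17b6 with -0.33 and -0.42 (mean -0.37 ± 0.10) and Hsd17b13 with 0.67 and 0.28 (mean 0.48 ± 0.18). The means of Hsd3b5, Hsd3b2 and Hsd17b6 kept the sign of the sham comparison. In 3 alternative runs Hsd3b5 read 0.79 to 0.995 there and was called. Taken from these arrays and the sham ones, which share no array with the within-sex arrays, the sex difference in the Hypox effect was -1.23 ± 0.16 for Hsd3b2 (adjusted p = 7.7e-04). By the same route Hsd3b5 fell by 2.00 (SE 0.19) more in males than in females (adjusted p = 3.6e-05), where the within-sex arrays had given -0.40. By this route, added after the data were seen, 5.67% of all genes were called. Slide, scan day and sex cannot be told apart in the within-sex difference, since male and female arrays lay on other slides scanned on other days. The between-sex route has a like limit. Its Hypox arrays lay on other slides, scanned on another day, than its sham arrays. Both routes rest on the same groups of mice.

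**Figure D2:**
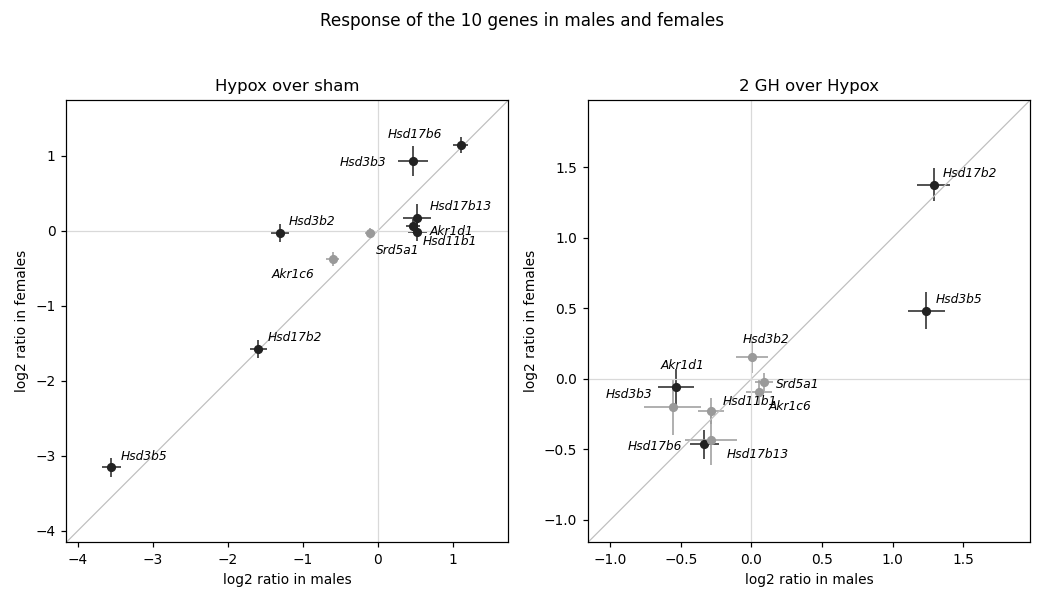
Response of the 10 genes in males (x axis) and females (y axis), as log2 ratios of Hypox over sham (left) and of 2 GH injections over Hypox (right), each the mean of 2 arrays with SE bars. Dark points were called in at least 1 sex and the line marks equal responses. After Hypox, Hsd3b2 lies at -1.31 in males and -0.03 in females, off the line, while Hsd17b2 at -1.59 and -1.58 lies on it.

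The Hypox reading of Hsd3b5 differed with the RNA that shared the array. On a normalised log2 intensity scale per channel, sham males lay between 15.37 and 15.40. Hypox males read 11.69 and 11.99 beside sham RNA, but 7.09 to 7.30 in their other 8 channels. Hypox females read 8.45 and 9.08 beside sham RNA and 6.67 to 6.82 in their other 8 channels. The gap between those means was 4.65 in males, the largest of the 26192 genes, and 2.03 in females, the 16th largest. Over all genes the gap grew with the fall. In males its median was 0.13 for genes that fell by 1 to 2 and 2.76 for the 10 genes that fell by over 6. In females it was 0.08 and 1.86 (12 genes over 6). Fall and gap both subtract the Hypox level of the channels without sham RNA, so part of this trend is built in. Among the genes that fell by over 6, the gap ran from -1.28 to 4.65 in males and from -0.04 to 4.81 in females. The gap of Hsd3b5 was present in the signals before normalization. Net of background, Hypox males gave 2171 in green and 5461 in red beside sham RNA. Elsewhere they gave 54.8 to 79.4 in green and 87.0 to 145 in red.

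Read from the channels without sham RNA, the fall of Hsd3b5 was -8.20 in males and -5.67 in females, in place of -3.55 and -3.16. Sham females also read lower beside Hypox females (12.49 and 11.35) than beside sham males (13.04 and 12.75). The direction of every Hsd3b5 call held by either reading, while its size did not. Among the other 9 members the gap was between -0.35 and 0.19 in males and between -0.20 and 0.14 in females. Hsd3b4, another male-predominant keto steroid reductase, had gaps of 2.96 and 0.84. The cause of these gaps was not tested.

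**Figure D3:**
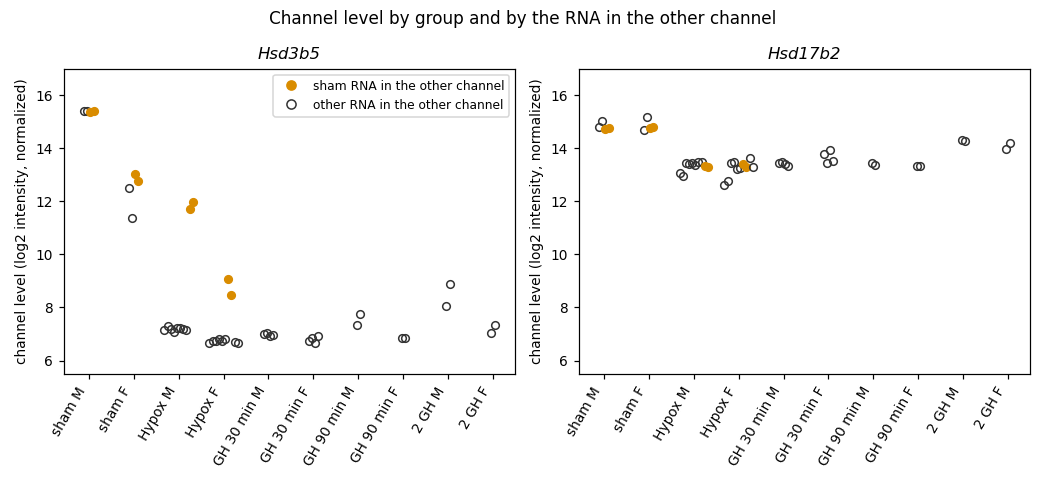
Normalised log2 intensity of Hsd3b5 and Hsd17b2 in each channel (y axis) by group of mice (x axis), with filled orange points for channels that shared the array with sham RNA and the other points for channels that did not. Hypox males beside sham RNA read 11.69 and 11.99 for Hsd3b5, far above the 7.09 to 7.30 of their other channels, whereas the Hypox channels of Hsd17b2 all lie between 12.62 and 13.62.

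GH-treated Hypox mice were compared with Hypox mice of the same sex to give the early response to GH. After 1 injection no member was called by limma at 30 min or 90 min in either sex. The share of all genes called was 2.5% in males and 0.0191% in females at 30 min, and 4.98% and 3.17% at 90 min. At an unadjusted p under 0.05 there was 1 member at 30 min in males (Akr1c6) and 0 in females. At 90 min there were 3 in males (Hsd3b5, Hsd17b13 and Akr1d1) and 2 in females (Hsd17b13 and Akr1d1).

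At 30 min the member means ran from -0.20 (Hsd3b2) to 0.36 (Akr1c6) in males and from -0.07 (Hsd3b2) to 0.24 (Hsd17b13) in females. The 95% interval of Hsd17b2, which rose in both sexes after 2 injections, was -0.32 to 0.19 in males and -0.12 to 0.38 in females. At 90 min it still read 0.01 and 0.01 in males, with an interval of -0.25 to 0.26, and had a mean of 0.12 in females. Hsd17b13 read 0.36 and 0.62 in males (mean 0.49 ± 0.18, adjusted p = 0.164) and 0.60 and 0.60 in females (mean 0.60 ± 0.18, adjusted p = 0.111). Akr1d1 read -0.21 and -0.50 in males and -0.11 and -0.62 in females, with a mean of -0.36 ± 0.13 in each sex (adjusted p = 0.148 and 0.179). Hsd3b5 read 0.12 and 0.52 in males (mean 0.32 ± 0.13, adjusted p = 0.198) and 0.09 and 0.02 in females. All 4 arrays of Hsd17b13 lay above 0 and all 4 of Akr1d1 below it, but neither gene passed the test. No member was called by limma for a sex difference in the GH effect at 30 min or 90 min (0.00764% of all genes each time, with 1 and 0 members at an unadjusted p under 0.05). No member was called when the 90 min and 30 min effects were compared within a sex, against 2.47% of all genes in males and 0.153% in females, or when males were set directly against females at 30 min, against 0.504%. At an unadjusted p under 0.05 these 3 limma comparisons held 3, 0 and 2 members.

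More members were called after 2 injections. Hsd17b2 and Hsd3b5 rose and Hsd17b6 fell in both sexes, and Akr1d1 fell in males. That made 4 of 10 members in males against 19.3% of all genes (2 higher against 10.6%, and 2 lower against 8.7%). In females it made 3 of 10 against 8.43% (2 higher against 4.4%, and 1 lower against 4.03%). The member medians were -0.14 and -0.07, beside -0.01 and 0.00 for all genes. The effects of 2 injections and of 1 were not tested against each other. In males the arrays of 2 injections lay on another slide, scanned on another day, than those of 1 injection. Their Hypox pools held 5 mice in place of 3.

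Hsd17b2 rose by nearly the same amount in both sexes. It read 1.25 and 1.33 in males (mean 1.29 ± 0.12, adjusted p = 2.3e-05) and 1.33 and 1.42 in females (mean 1.37 ± 0.12, adjusted p = 7.6e-05). The male minus female difference was -0.08, with an interval of -0.44 to 0.27. Its level per channel was 14.69 to 15.16 in sham mice, 12.62 to 13.62 in Hypox mice and 13.96 to 14.30 after 2 injections, so the treated channels lay above all Hypox channels and below all sham channels.

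Hsd3b5 read 0.90 and 1.57 in males (mean 1.24 ± 0.13, adjusted p = 5.3e-05) and 0.36 and 0.61 in females (mean 0.48 ± 0.13, adjusted p = 0.040). The larger response in males did not pass the test of the difference (0.75 ± 0.19, adjusted p = 0.056), where 1.97% of all genes passed and no member was called, with 2 members at an unadjusted p under 0.05. Male and female arrays of 2 injections lay on other slides scanned on other days. Slide, scan day and sex therefore cannot be told apart in this difference for any gene. The treated male channels, at 8.07 and 8.88, stayed below the 15.37 to 15.40 of sham males. The spot was dim away from sham RNA: net of background, Hypox females gave 29.1 to 34.2 in green and 49.6 to 64.7 in red. The offset of 50 added in background correction pulls ratios of such dim spots toward 0. Over the alternative runs the response ran from 0.98 to 1.66 in males and from 0.41 to 1.17 in females, so its size depends on the processing.

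Hsd17b6 read -0.47 and -0.20 in males (mean -0.34 ± 0.10, adjusted p = 0.036) and -0.44 and -0.49 in females (mean -0.46 ± 0.10, adjusted p = 0.0175). Akr1d1 read -0.49 and -0.58 in males (mean -0.53 ± 0.13, adjusted p = 0.011) and 0.01 and -0.12 in females (mean -0.06 ± 0.13), but the difference between sexes was not called (-0.48 ± 0.18, adjusted p = 0.187). Hsd3b2 read -0.05 and 0.06 in males (mean 0.00 ± 0.12, with an interval of -0.25 to 0.25). No rise of Hsd3b2 was thus seen on these 2 arrays. Hypox over sham males, which shares the Hypox group but had Hypox pools of 3 mice in place of 5, had given -1.31. The interval describes the spread between arrays and not between mice, so it does not bound a recovery. Hsd3b3 read -0.54 and -0.57 in males (mean -0.56 ± 0.20, adjusted p = 0.073). With either array left out, Hsd17b6 and Akr1d1 in males and Hsd3b5 and Hsd17b6 in females lost their calls, with values of -0.25 and -0.42, -0.45 and -0.62, 0.51 and 0.45, and -0.55 and -0.38. The male Hypox pools of this comparison share mice.

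Hsd11b1 and Akr1c6 read differently by dye. On each pair of arrays the labelling is swapped, and the dye term of the fit, a shift that follows the dye and not the group, was 0.55 for Akr1c6 and 0.37 for Hsd11b1, larger in size than in 99.8% and 99.4% of all genes. A dye term passed the test in 11% of all genes. Akr1c6 therefore read -1.22 and 0.01 in Hypox over sham males (mean -0.61 ± 0.09, adjusted p = 2.4e-04) and -0.91 and 0.15 in females (mean -0.38 ± 0.09, adjusted p = 0.0073), and was not called since its arrays went opposite ways. Hsd11b1 after 2 injections in males, at -0.67 and 0.10 (mean -0.29 ± 0.09, adjusted p = 0.047), missed the call for the same reason. The signs were read from ratios with the dye shift still in them. These missed calls therefore do not show an absence of change. The single-array values of Hsd11b1 above carry this shift too, and it cancels in the mean of the 2 dyes.

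**Figure D4:**
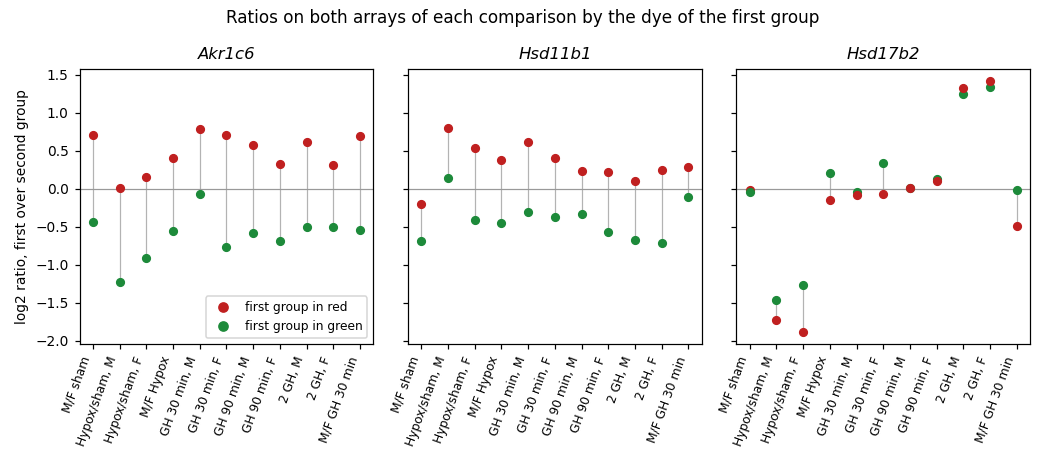
Log2 ratios of Akr1c6, Hsd11b1 and Hsd17b2 (y axis) in the 11 comparisons (x axis), with points marked by the dye of the first named group. For Akr1c6 the 2 dyes lie apart throughout, as its dye term of 0.55 says, and for Hsd17b2 the 2 arrays of most comparisons lie close together.

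Srd5a1, which reduces testosterone to dihydrotestosterone, was well above background in 3 of 44 channels, all 3 of them among the 4 channels of sham males. Its arrays read 0.25 and 0.10 in sham males over females (adjusted p = 0.114) and -0.11 and -0.10 in Hypox over sham males (adjusted p = 0.216). Its mean normalised log2 level was 6.39 in sham males, 6.21 in sham females and 6.14 in Hypox males, and in the latter 2 groups it was not well above background in any channel. Neither comparison was called, so no fold is given.

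Other genes of steroid metabolism were read from lists chosen with results of these data already known. Of 16 other hydroxysteroid dehydrogenases tested, 5 were higher in sham males (5.03% of all genes) and 3 in sham females (3.74%), with a median of 0.06. Hsd3b4, the closest in pattern to Hsd3b5, read 2.58 and 2.90 there (mean 2.74 ± 0.14). Hsd3b6 read 0.38 and 1.16 (mean 0.77 ± 0.21). After Hypox 5 rose and 7 fell in males (median -0.02, beside 18.8% and 18.6% of all genes), and 5 rose and 4 fell in females (median 0.05, beside 14.6% and 16.5%). Hsd3b4 read -4.33 and -3.86 in males and -3.27 and -2.72 in females, and its effect differed between the sexes by -1.10 ± 0.19 (adjusted p = 0.0053). Hsd3b7, of the bile acid pathway, fell by 1.10 in males and by 0.44 in females. The retinol and steroid dehydrogenase Rdh16 rose by 1.10 in males.

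Of 9 other reductases tested, 1 was higher in sham males and 2 in sham females (median 0.15, beside 8.77% of all genes called either way), among them the aldo-keto reductase Akr1b7 at -2.37 ± 0.32. After Hypox in males 2 rose and 1 fell, with Akr1b7 at 2.37, and in females 1 rose and 2 fell, with the hydroxysteroid reductase Akr1c14 at 0.84. These 3 of 9 in each sex lay near the 37.4% and 31.1% of all genes. After 2 GH injections 4 fell in males, beside 8.7% of all genes, and limma called none in females (medians -0.18 and -0.08). Srd5a2, the other testosterone reductase, fell in males by 1.13 (SE 0.15). Its response differed between the male and female arrays (-1.04 ± 0.21, limma adjusted p = 0.032), where sex cannot be told apart from slide and scan day.

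Of 16 genes of steroid hydroxylation and conjugation, 7 were higher in sham males (5.03% of all genes) and 7 in sham females (3.74%; median -0.28), from the sulfotransferase Sult2a2 at -5.97 to the hydroxylase Cyp7b1 at 3.10. After Hypox 8 fell and 3 rose in males (median -0.45, beside 18.6% and 18.8% of all genes), and 10 fell in females (median -0.49, beside 16.5%). Of 12 bile acid synthesis genes, 9 fell in males and 6 in females (medians -0.70 and -0.42, beside the same 18.6% and 16.5%), among them Cyp27a1, which hydroxylates the sterol side chain, at -1.77 and -1.51. Some of these 12, including Hsd3b7 and Cyp7b1, were also counted in the lists above, so the lists are not separate groups. The estrogen receptor Esr1 fell after Hypox, at -1.20 in males and -3.13 in females.

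Markers of other cells moved with some of these comparisons. The summed level of 5 B and T cell markers was 9.52 to 9.85 in sham males and 10.77 to 11.07 in Hypox males. In females it was 9.72 to 9.97 and 10.34 to 10.89. That of 5 skeletal muscle markers was 12.54 to 14.50 in sham males and 8.93 to 11.90 in Hypox males. Of the adrenal and gonad markers, which matter here because those glands make steroids, 5 of 9 were tested. Their summed level was 11.70 to 12.30 in sham females and 9.73 to 10.75 in Hypox females, where 3 fell (16.5% of all genes). In males it was 10.48 to 10.88 and 9.45 to 10.70, and 2 fell (18.6% of all genes). Of this list, Star, Cyp17a1 and Mc2r were well above background in 44 of 44 channels, Nr5a1 in 43 and Cyp21a1 in 36. Cyp11a1, Cyp11b2 and Cyp19a1 were so in 2, 1 and 1. Between sham sexes the summed level of the 5 skeletal muscle markers was 12.54 to 14.50 in males and 8.88 to 11.11 in females. That of 4 Kupffer cell and macrophage markers was 13.79 to 13.98 in males and 14.46 to 14.54 in females. Clec4f and Vsig4 were called lower in males, beside 3.74% of all genes. After 2 injections in males 3 of 4 pancreatic acinar markers were higher, beside 10.6% of all genes. Their summed levels were 9.30 and 14.54 in the 2 treated channels, and Pnlip ratios were 0.92 and 4.57. Muscle markers there summed to 8.91 and 14.70. After 2 injections in females 5 of 5 muscle markers were lower, beside 4.03% of all genes. The treated channels lay at 11.47 and 11.85 and Hypox channels from 9.04 to 15.56 over all arrays. The part of these markers in the results was not tested.

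Across the 22 arrays each member was set beside all genes with a symbol and a reliable signal, as a description. The ratios of Hsd3b5 ran closest to those of Hsd3b4 (Pearson r 0.99), Nudt7 (0.97) and Mup1 (0.96). Those of Hsd3b2 ran closest to Tff3 (0.97), Creld1 (0.96) and Armcx6 (0.96), and those of Hsd3b3 to Hsd3b6 (0.97), Bivm (0.91) and Nudt13 (0.87). Hsd17b2 was nearest to Sdr42e1, Igfals and Fam210b (0.94 each), and Hsd17b6 to Septin6 (0.93), Igfbp2 (0.93) and Suclg2 (0.92). Akr1d1 was nearest to Rab30 (0.88), Immp2l (0.87) and Dpp4 (0.87), and Hsd17b13 to Zfp36 (0.82), Maff (0.81) and Crtc2 (0.81). Hsd11b1 ran with Morf4l1 (0.96) and Akr1c6 with Mgst1 (0.95), both members with the large dye terms given above. Srd5a1, read mostly at background, reached 0.77 with Mep1a. The arrays share pools, so these points are not independent. Whether the probes of the Hsd3b family tell its transcripts apart was not tested.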

How the data were processed

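Liver RNA pools had been hybridised to 2-colour Agilent arrays, 2 dye-swapped arrays for each of 11 comparisons. Per the file headers, the scanner files hold mean spot intensities with background median intensities, and a log10 ratio of signals that the scanner software had background-subtracted and dye-normalized. The deposited value table holds log2 ratios, each of its 22 columns equal to 1 scanner file's ratio within 0.005. In 16 columns that file carried the label of the dye-swapped partner array, so scanner files were used and the table was an alternative.

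Intensities were corrected with normexp (offset 50) and normalized by loess within arrays (limma 3.58.1, R 4.3.3). Control and outlier spots were left out. Each of 33767 gene names was read from its brightest probe, and 26192 were tested, those that the scanner flagged as well above background in 1 or both channels of both arrays of any comparison. Median signals were 290 to 367 in green and 407 to 503 in red. A single lmFit and eBayes fit had 11 coefficients and a dye term per probe (10 residual degrees of freedom), with Benjamini-Hochberg adjustment within a comparison. Channel levels were scaled between arrays (Aquantile). The number of arrays limits the precision. The fit was tested on simulated data with noise drawn independently for each array. That test does not cover false calls among arrays that share pools or slides.

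Members and lists were chosen with earlier results of these data known. The text names all 10 members, up to 4 of the largest called genes of a related list per comparison, Socs2 as the GH check, and for a member the genes of highest Pearson r over the 22 arrays. Hsd3b4, Hsd3b6 and Hsd3b7 are given also where they fall outside this rule. Not every gene that the rule takes is reported here.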

Additional observations from a re-analysis of the deposited data

Results flagged for a closer look

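The response of Hsd3b2 to Hypox differed between the sexes. It fell by 1.31 in males and read -0.03 in females, a difference of -1.28 ± 0.16 (limma, adjusted p = 5.5e-04). Both male arrays (-1.39 and -1.22) lay below both female arrays (0.08 and -0.14). The arrays that set males against females, from the same groups of mice, gave -1.23 ± 0.16. Centring on the median ended the call (-1.14). Without array 2 of Hypox over sham females, which had the lowest share of spots well above background in a channel (57.1%) and the most outlier spots (159), the difference was -1.45 and was called.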

How the results depend on the processing

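No result reversed its direction under any alternative run. The calls of Hsd3b5 and Hsd3b2 between sham sexes, of Hsd3b5, Hsd3b2, Hsd17b2 and Hsd17b6 in Hypox males, of Hsd3b5, Hsd17b2 and Hsd17b6 in Hypox females, and of Hsd17b2 after 2 injections held under all of them. Centring on the median in place of loess left 2 of 6 members called between sham sexes, 1 of 4 in males and 1 of 3 in females after 2 injections, and 0 of 1 for the sex difference in the Hypox effect. Over all genes it left 2991 of 9783 calls in Hypox males, 1837 higher and 1154 lower against 4917 and 4866. Fitting the arrays of a comparison alone left 3 members between sham sexes and 2 in males after 2 injections. A loop model of the 10 groups called 4 members in male over female Hypox mice (0 before) and 4 for the sex difference in the Hypox effect, which the between-sex arrays gave as 2 members. The scanner log ratio and the deposited value table each called 1 member, Hsd3b5, in male over female Hypox mice, and both also called Akr1c6 in Hypox mice of each sex and Srd5a1 between sham sexes (up to 2.09) and in Hypox males (down to -1.54). The loop model also called Hsd3b3 in Hypox males and, at -0.56, after 2 injections in males, and Srd5a1 in Hypox males (-0.14). Slide as a random block gave 1 member, Hsd3b5, for the sex difference after 2 injections. With 1 array left out, 2 to 4 members were called between sham sexes (6 before), 2 and 1 after 2 injections in males and females (4 and 3 before), 5 to 6 in Hypox males (7 before, and the 6 include Akr1c6, which is not one of the 7) and 3 to 4 in Hypox females (4 before). The replicate number goes with the slide in most comparisons. Deviations of same-numbered arrays had correlations of -0.485 to 0.723 over 55 pairs of comparisons, 28 of them over 0.1. The dye shift was not taken out of these deviations. Array 1 held the first group in green in all within-sex comparisons and in red in all between-sex ones. These correlations therefore cannot tell whether arrays of the same number deviate together for reasons other than dye. The replicate block called 1 member, Hsd3b5, for the sex difference after 2 injections and 1, Akr1d1, at 90 min in males (0 before in each), and lost Hsd3b3 between sham sexes (0.67) and Hsd3b5 after 2 injections in females (0.41). By adjusted p alone Akr1c6 in Hypox mice and Hsd11b1 after 2 injections in males would be called. The cause of these shifts was not tested. Srd5a1 was limited by its signal over background.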
